A study of Caenorhabditis elegans with 2 samples.

Results

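The genes of the CoREST complex and of the suppressors of presenilin (SPR) were examined for regions called in a ChIP-seq (chromatin immunoprecipitation and sequencing) experiment on SPR-1 in the nematode Caenorhabditis elegans. The 10 genes were spr-1, rcor-1, spr-5, lsd-1, amx-1, hda-1, hda-2, hda-3, spr-3 and spr-4, taken by name from the Ensembl annotation of the genome build WBcel235 (ce11), which held each of them among 19973 nuclear protein-coding genes. They were listed by name, with no measured value in the rule, although earlier results of the same data were known when the list was drawn up. The study had 1 group of 2 samples, biological replicates 1 and 2 from separate biosamples, and no control group. Both were hermaphrodites of strain OP521, genotype unc-119(tm4063) III; wgIs521. The strain stably expresses SPR-1 from a transgene with a C-terminal GFP-FLAG tag, and its genotype as given lists no mutation of spr-1 itself. Animals were taken whole as L4 larvae, 50 hours after release from L1 starvation, so each region is an average over all cells. The antibody was directed against GFP.

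CoREST proteins are scaffolds that bring a histone demethylase of the LSD1 family and histone deacetylases together on chromatin, where removal of methyl groups from lysine 4 of histone H3 and of acetyl groups goes with silencing. SPR-1 is a CoREST protein of the worm. The spr genes were found because their loss bypasses the need for the presenilin gene sel-12, through expression of the other presenilin gene hop-1 at stages where it is normally silent. SPR-1 was precipitated here, so the data show where tagged SPR-1 was enriched near the genes of its own complex, not how those genes were expressed.

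Each replicate had a list of candidate regions, and both together gave a pooled list of 30000 candidates. A thresholded list held the 1686 strongest of these, with signals of 79.7 and above. The candidate lists hold background as well as peaks, so a candidate is not in itself an enriched region. Deposited −log10 q values ran from 0.0256 to 3.02 in the pooled list and from 2.80 in the thresholded list. Signal is the height that the authors gave each region, on a scale not given in the sources used here. Ranks (1 is the strongest) and percentiles (the percent of regions of the same list with a lower signal) were therefore used to set lists side by side. Replicate 1 had 26070 regions and replicate 2 had 21966, and the read depth behind them is unknown. Below, bound means that the thresholded list held a summit no more than 1000 bp from the annotated start of the gene. In this species the annotated start is often a trans-splice site downstream of the start of transcription.

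The number of these genes with a thresholded region at the start was near the background. Of the 10 genes, 6 had a pooled candidate within 1000 bp of the start, against 45.8% of all nuclear protein-coding genes. Only rcor-1 was bound, 1 of 10 genes and 1 of the 6 with a candidate. Over all nuclear protein-coding genes 5.83% were bound, and over those with a candidate 12.7% were, so 1 gene among 10 is near the background. In each replicate's own 1686 strongest regions the bound gene was rcor-1 alone, where 5.65% of all genes were bound in replicate 1 and 5.96% in replicate 2. The thresholded list was made from the same replicates, so it and their own lists are not independent. The same holds below where a thresholded region was high in both. Among the 6 genes the median percentile of the strongest start candidate was 58.9, and among the 9153 genes with one it was 65.7, with an interquartile range of 38.0 to 87.0. No test was made of these counts, since the genes were listed with earlier results of the same data known. The strongest pooled start candidates of spr-3, spr-4, spr-5 and hda-2 had −log10 q values of 0.153, 0.206, 0.106 and 0.196. The lowest thresholded value was 2.80, so the candidates of these genes lay far below it.

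In replicate 1, 7 of the 10 genes had a start candidate, beside 43.5% of all nuclear protein-coding genes. In replicate 2 there were 4, beside 38.8% of all genes, so that count is near the background. The 4 (rcor-1, hda-1, hda-2 and spr-4) were all among the 7. Of all nuclear protein-coding genes, 28.7% had a candidate in both replicates. For the 4 genes, the percentiles in the replicates differed by 3.88 (rcor-1), 31.1 (hda-1), 24.5 (hda-2) and 26.5 (spr-4) points. Over the 5733 genes with a candidate in both, the median difference was 12.8 points, with an interquartile range of 3.40 to 30.3. The percentile of rcor-1 thus differed little between replicates, although its rank was 865 in replicate 1 and 1581 in replicate 2. A region near the top of both lists can differ only little in percentile. The other 3 genes varied more than the median gene, hda-2 and spr-4 within the interquartile range and hda-1 just above it.

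**Figure D1:**
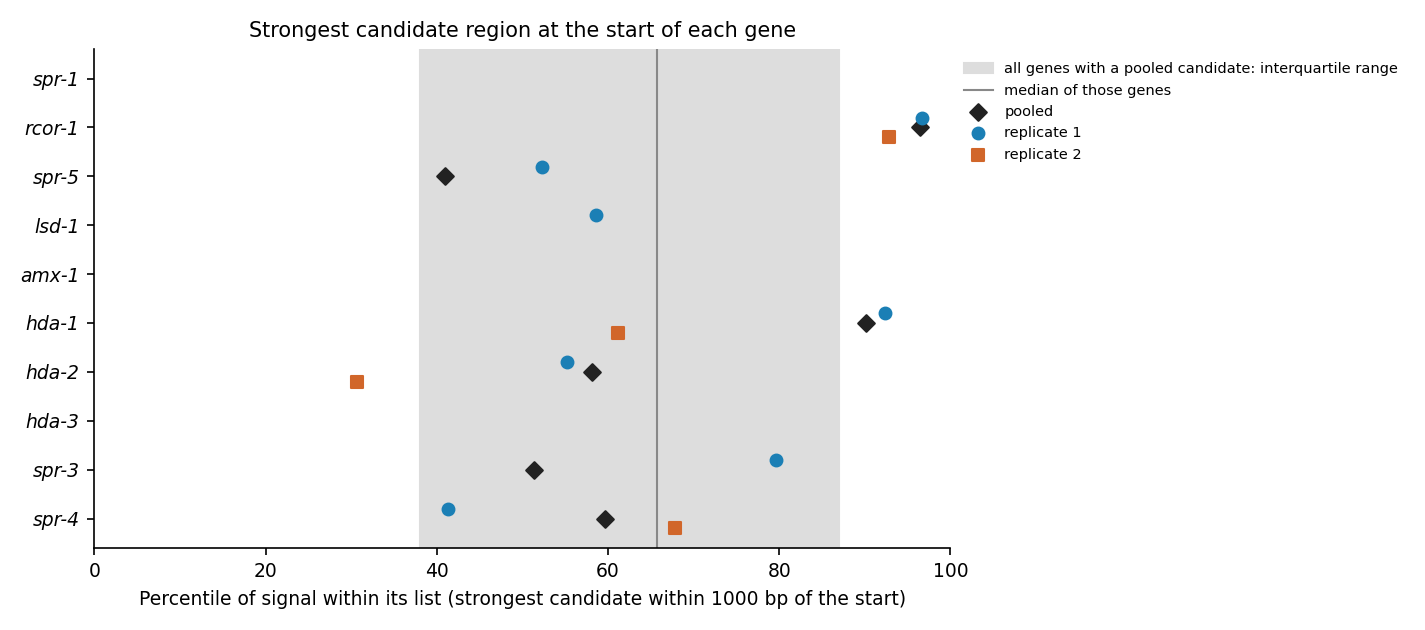
Percentile of signal within its list (x axis, percent) of the strongest candidate within 1000 bp of the start, for each of the 10 genes (y axis). Diamonds are the pooled list, circles replicate 1 and squares replicate 2, and a missing symbol means no candidate. The grey band and line give the interquartile range (38.0 to 87.0) and the median (65.7) of all genes with a pooled candidate. The 3 symbols of rcor-1 lie at 92.8 to 96.7, and those of hda-1 spread from 61.2 to 92.3.

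The CoREST genes were spr-1 and rcor-1. The gene rcor-1 (WBGene00022278) encodes the second CoREST-family protein of the worm and lies near the left end of chromosome I, at 17484 to 26781 on the minus strand. Its bound region spans 26979 to 27438, with the summit 428 bp upstream of the start, a pooled signal of 101, and rank 1074 (percentile 96.4). The deposited −log10 q value of this region was 3.02, the ceiling of the pooled list. In replicate 1 the summit lay 437 bp upstream, with a signal of 64.7 and rank 865 (percentile 96.7). In replicate 2 it lay 391 bp upstream, with a signal of 39.3 and rank 1581 (percentile 92.8). The mean percentile was 94.7 ± 2.74 (SD, n = 2), so rcor-1 was high in both replicates, although in replicate 2 it stood only just within the 1686 strongest. The nearest pooled regions in rank that lay at a gene start were those of tag-151 above it (rank 1073) and Y54E10A.10 below it (rank 1075).

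The region of rcor-1 was intergenic. It lay 380 bp past the 3′ end of sesn-1 (sestrin), the next gene upstream on the same strand, and no other gene start was within 1000 bp of the summit. Inside the body of rcor-1, 9298 bp long, there were 3 more pooled candidates, all in introns and none thresholded. Of these, 2 overlapping ones lay 4206 and 4445 bp into the gene, with signals of 38.3 and 37.1. Replicate 1 had 2 regions there, at percentiles 50.1 and 77.6, and replicate 2 had 1, at 69.4. The third lay 8565 bp into the gene with a signal of 20.2. A far stronger region stood beyond the other end of the gene. Its signal was 297 and its rank 111, with the summit at position 17033, 451 bp past the 3′ end of rcor-1. The same summit was 196 bp past the 3′ end of nlp-40, a neuropeptide gene that converges on rcor-1. This intergenic region was thresholded, but by the 1000 bp rule it belongs to no protein-coding gene start.

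No candidate of any list lay within 20 kb of spr-1 (WBGene00005006), whose product was precipitated (chromosome V, 8126663 to 8129352, minus strand). The empty stretch around it was 79.3 kb in the pooled list, 75.3 kb in replicate 1 and 87.1 kb in replicate 2. In replicate 1, 17 of 26043 gaps between neighbouring nuclear summits were longer, and in replicate 2, 9 of 21938, against median gaps of 1776 and 2015 bp. These counts are over gaps and not over genes. Counted by gene, 4.01% of nuclear protein-coding genes, spr-1 included, had no pooled candidate within 20 kb of the start. For candidates of replicate 1 this share was 2.52%, and for those of replicate 2 it was 2.64%. The start of spr-1 lay 42.4 kb from one edge and 32.9 kb from the other in replicate 1, and 52.4 and 34.7 kb in replicate 2. The same 18 protein-coding genes, spr-1 included, lay wholly inside the gap in the pooled list and in replicate 1, among them the divergent neighbour snap-1 and 5 chemoreceptor-type genes with str names. In replicate 2 the gap held 20. The right edges of the 3 lists lay within 1842 bp of each other, and the left edges within 10044 bp. Between thresholded summits the gap was 190 kb, and 103 of 1657 such gaps were longer, so it stood out less among thresholded regions than among candidates. How many copies of the spr-1 region the strain carries was not measured, and its part in the gap was not tested.

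**Figure D2:**
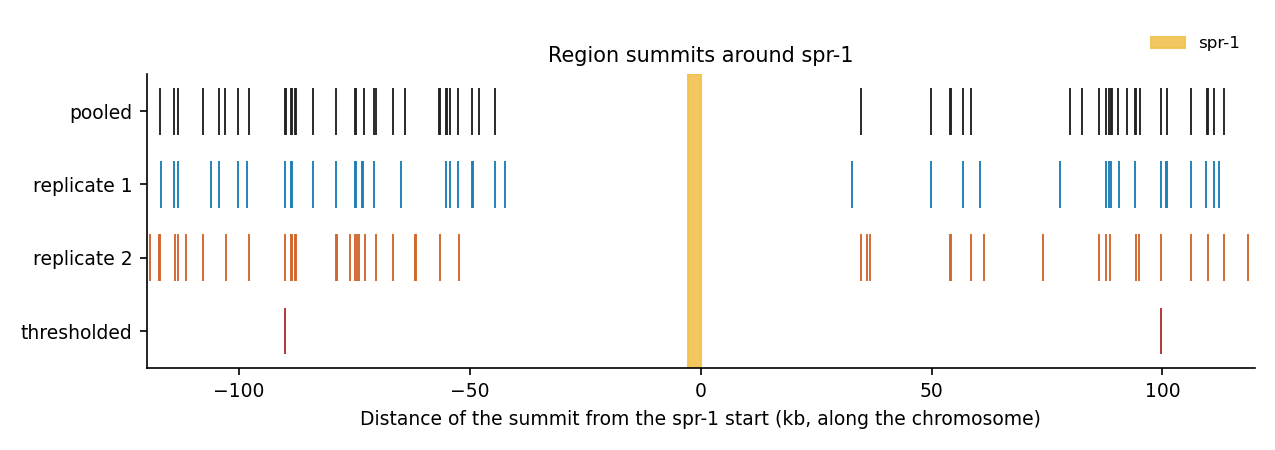
Summits of regions on chromosome V around spr-1. The x axis is the distance from the spr-1 start in kb, along the chromosome, each tick is 1 summit, and rows are the pooled list, the replicates and the thresholded list. The yellow bar is the gene. The pooled and replicate rows are empty from at least 42.4 kb on the left to 32.9 kb on the right.

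The demethylase genes were spr-5, lsd-1 and amx-1. SPR-5 and LSD-1 are the LSD1-type demethylases of histone H3 lysine 4, and amx-1 encodes a related amine oxidase. None was bound. The gene spr-5 (WBGene00005010, chromosome I, 13438058 to 13450218, plus strand) had 2 pooled candidates, in introns 293 and 716 bp into the gene, with signals of 25.01 and 17.8 (percentiles 41.0 and 1.35). In replicate 1 there were 2 within 1000 bp, at percentiles 50.4 and 52.2, and in replicate 2 none. The start of the noncoding RNA gene Y40B1B.10 also lay within 1000 bp of each of these pooled and replicate 1 candidates. The surroundings of spr-5 were also thinly covered in replicate 2, with 2 candidates within 20 kb of the start against 9 in replicate 1. A lower number was found at 6.01% of genes in that list.

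For lsd-1 (WBGene00011615, X, 11948844 to 11951893, plus strand) the pooled list and replicate 2 held no candidate at the start or in the gene. Replicate 1 held 1, 450 bp upstream in intergenic sequence, with a signal of 20.4 (percentile 58.6) and a −log10 q value of 0.231. The gene amx-1 (WBGene00000137, III, 3822403 to 3826260, plus strand) had none at its start or in its body in any of the 3 lists. Its neighbourhood was not empty as that of spr-1 was. Within 20 kb of its start it held 8 pooled candidates, more than 31.1% of all genes, while lsd-1 held 17, more than 73.3%.

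**Figure D3:**
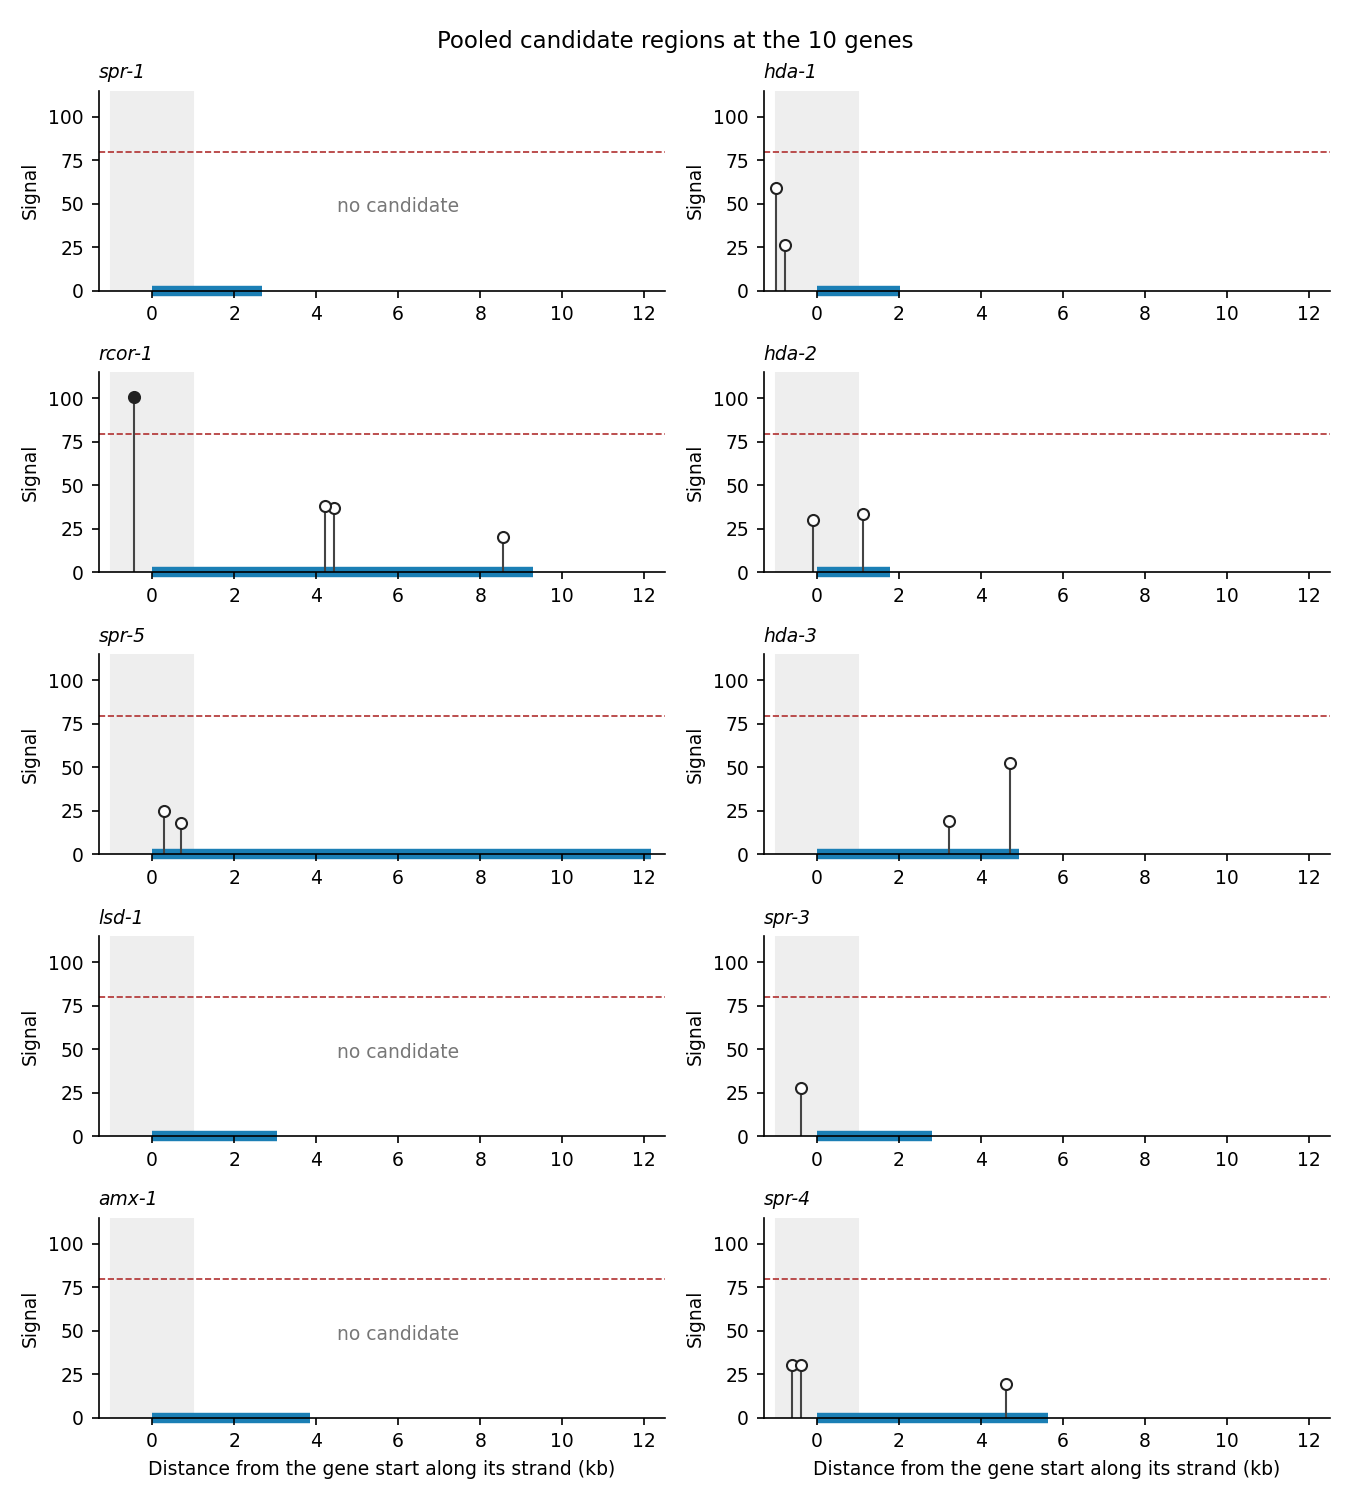
Pooled candidates at the 10 genes. Each panel has the distance from the gene start along its strand (x axis, kb) and the authors' signal of each candidate (y axis), the blue bar is the gene, grey marks 1000 bp on both sides of the start, and the dashed line is the lowest thresholded signal, 79.7. The filled point 428 bp upstream of rcor-1, with a signal of 101, is the thresholded one. Open points reach at most 59.1, upstream of hda-1.

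The class I deacetylase genes hda-1, hda-2 and hda-3 had no thresholded summit at their starts. The gene hda-1 (WBGene00001834, V, 14525389 to 14527411, plus strand) encodes the deacetylase that also works in the NuRD complex. Its strongest pooled candidate had a signal of 59.1, rank 2945 and percentile 90.2, with a −log10 q value of 1.73, and came closest to the threshold among the unbound genes. Its summit was 991 bp upstream, only just inside the window. That summit was nearer to the divergent gene ril-1, 269 bp upstream of the ril-1 start, and lay in an exon of the noncoding RNA gene C53A5.18. In replicate 1 the region was at percentile 92.3 (signal 42.7, rank 2004), and in replicate 2 the start candidate was at 61.2 (signal 18.7, rank 8525). The mean was 76.8 ± 22.0 (SD, n = 2), so hda-1 was high in replicate 1 and only moderate in replicate 2. A second pooled candidate, 787 bp upstream, had a signal of 26.2.

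At hda-2 (WBGene00001835, II, 8020780 to 8022561, minus strand) the start candidate was 91 bp upstream, in the 3′ UTR of the preceding gene swsn-7. Its signal was 29.8, at percentile 58.2. Replicate 1 had 1 at percentile 55.2, 37 bp upstream, and replicate 2 had 1 at 30.7, 263 bp into the gene, so the 2 summits lay on opposite sides of the start. A candidate in a coding exon, 1129 bp into hda-2, had a pooled signal of 33.5. Replicate 1 had 2 overlapping candidates there, 1133 bp into the gene at percentile 39.04 and 1343 bp into it at 52.1. Replicate 2 had 1, 1063 bp into the gene at percentile 64.9.

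The gene hda-2 starts 71 bp downstream of the 3′ end of swsn-7, a subunit gene of the SWI/SNF chromatin remodelling complex, on the same strand. Closely spaced genes on the same strand are often transcribed together in this species, from a promoter before the first gene. The nearest thresholded summit was 648 bp upstream of the swsn-7 start, 5850 bp from the start of hda-2, in an exon of the noncoding RNA gene C08B11.11. Its signal was 198 and its rank 279, with rank 211 in replicate 1 and 434 in replicate 2, so it was high in both. The reference sequence (RefSeq, WBcel235, 5′ to 3′ on the strand of the member gene) around this summit and around that of hda-1 is shown because the first is the thresholded region before hda-2 and the second the candidate of hda-1 described above. The first spans chrII:8028261-8028560 on the minus strand and the second chrV:14524248-14524547 on the plus strand. Capitals mark matches to GAGAGA or its reverse complement.
hda-2, upstream of swsn-7: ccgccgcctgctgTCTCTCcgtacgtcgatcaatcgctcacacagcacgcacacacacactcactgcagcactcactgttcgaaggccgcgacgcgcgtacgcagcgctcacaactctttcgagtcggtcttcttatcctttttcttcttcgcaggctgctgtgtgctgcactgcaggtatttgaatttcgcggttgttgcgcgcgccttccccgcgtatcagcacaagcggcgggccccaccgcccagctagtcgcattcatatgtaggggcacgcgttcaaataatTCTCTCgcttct
hda-1: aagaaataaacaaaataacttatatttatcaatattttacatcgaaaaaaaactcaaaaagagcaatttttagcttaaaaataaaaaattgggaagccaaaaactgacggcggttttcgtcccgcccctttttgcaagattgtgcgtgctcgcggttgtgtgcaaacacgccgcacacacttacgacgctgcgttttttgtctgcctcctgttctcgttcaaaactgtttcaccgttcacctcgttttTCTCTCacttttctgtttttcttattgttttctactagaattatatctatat

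The sequence upstream of swsn-7 was 57.7% G and C and that of hda-1 36.3%, where the median of 29977 windows of 300 bp at nuclear candidates was 36.7% and that at thresholded summits 42.7%. GAGAGA occurred in 22.2% of all these windows and in 42.9% of the thresholded ones, so a match in a single window is common. A search on both strands was also made for GCGCGAA, the core of sites of E2F factors, which occurred in 2.68% of windows. TTCAGCA, the left part of the site of the vertebrate repressor REST that recruits CoREST, occurred in 6.26%, and GGACAGC from the right part of that site in 1.87%. None of the last 3 words was in the windows of hda-1 or swsn-7, which says only that these letters are not there.

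The gene hda-3 (WBGene00001836, chromosome I, 11912793 to 11917712, minus strand) had no candidate within 1000 bp of its start in any list. Its strongest candidate was at the other end, in its 3′ UTR, 4719 bp from the start, with a pooled signal of 52.6, rank 3729 and percentile 87.6. This summit lay 316 bp upstream of mag-1, the gene of an exon junction complex protein, on the same strand. Replicate 1 had a candidate at nearly the same summit, 4714 bp from the start, at percentile 79.2. A stronger one that overlapped the pooled region, at percentile 93.5, had its summit just past the end of hda-3. Replicate 2 had one at 85.6, 4778 bp from the start. Each replicate thus had a candidate here, within 1000 bp of the start of mag-1 and not of hda-3. A second candidate, in an intron, had a signal of 19.2.

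Across the 10 genes, 3 started 71 to 95 bp past the end of a gene on the same strand. Of all nuclear protein-coding genes, 18.1% followed another gene on the same strand with a gap of at most 500 bp, as these 3 did. Besides hda-2 after swsn-7 these were hda-3, 94 bp after fdps-1 (farnesyl diphosphate synthase), and spr-5, 95 bp after eif-3.J (a subunit of translation initiation factor 3). The nearest thresholded summit to spr-5 was 923 bp upstream of the start of eif-3.J, 3492 bp from spr-5, with a signal of 105.9 and rank 983. It ranked 1010 in replicate 1 and 1448 in replicate 2, and lay in the 3′ UTR of slc-25A46. No pooled candidate lay within 1000 bp of the start of fdps-1. In a count chosen after seeing the data, each gene was given the start of the first gene of its run of same-strand genes with gaps of at most 500 bp. Then 3 of the 10 genes were bound (rcor-1, hda-2 through swsn-7 and spr-5 through eif-3.J), beside 7.08% of all protein-coding genes counted the same way. Of these, hda-2 and spr-5 were counted only because they follow another gene in a run. Whether these runs are transcribed as units was not tested.

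**Figure D4:**
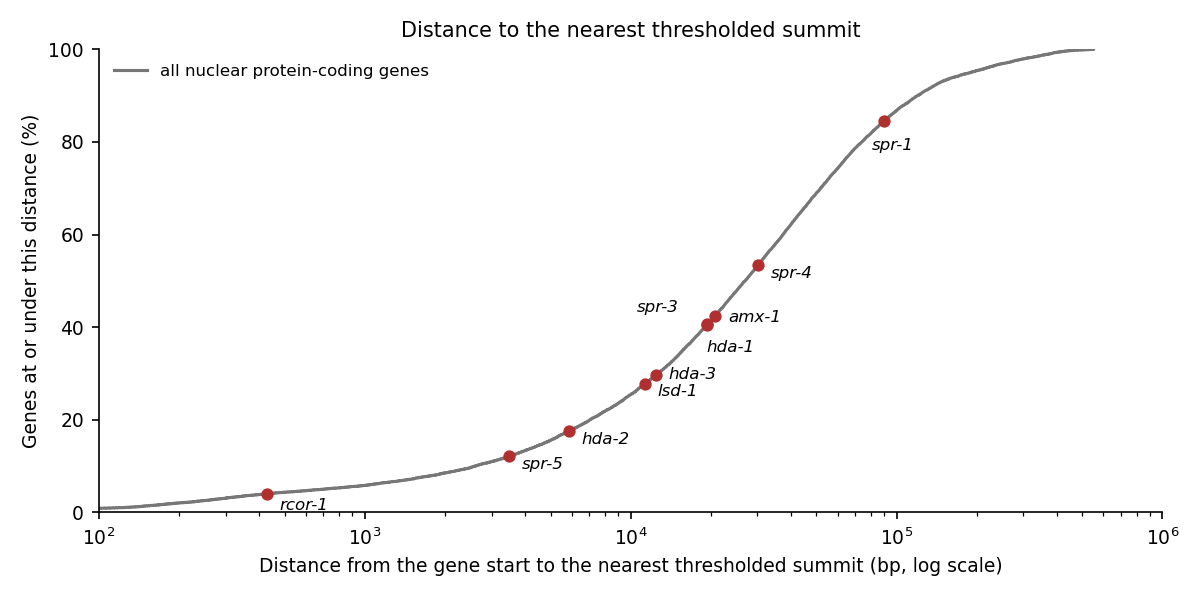
Distance from the gene start to the nearest thresholded summit (x axis, bp, log scale) against the percent of genes at or under that distance (y axis). The grey line is all 19973 nuclear protein-coding genes and the red points are the 10 genes. They run from rcor-1 at 428 bp to spr-1 at 89990 bp, with 8 of 10 nearer than the median gene.

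Thresholded summits were not rare in the wider surroundings of the 10 genes. The median distance from the start to the nearest was 15892 bp, against 26959 bp over all nuclear protein-coding genes. The interquartile range over all genes was 9744 to 61555 bp, so the median of the 10 lay inside it. After rcor-1 (428 bp), spr-5 (3492 bp) and hda-2 (5850 bp) came lsd-1 (11317 bp), hda-3 (12449 bp), hda-1 (19335 bp), spr-3 (19428 bp) and amx-1 (20835 bp). The zinc finger gene spr-4 (30222 bp) and spr-1 (89990 bp) lay farther than the median. The summit nearest to lsd-1 was among the strongest of the experiment, with a signal of 616 and rank 46. It was intergenic, 603 bp past the 3′ end of F55G7.5. Candidates of any strength were also denser around the 10 genes, with a median of 17.5 pooled ones within 20 kb of the start against 11 over all genes. Within the 10 gene bodies there were 9 pooled candidates over 48.2 kb, 0.187 per kb, against 0.305 per kb over all gene bodies. In replicate 1 the density was 0.270 per kb against 0.265, and in replicate 2 it was 0.166 against 0.217. No body of the 10 held a thresholded summit, where 2.50% of all gene bodies did.

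SPR-3 and SPR-4 are C2H2 zinc finger proteins that have been likened to REST, and neither gene was bound. The gene spr-3 (WBGene00005008, X, 4514093 to 4516895, plus strand) had 1 pooled candidate, 378 bp upstream, with a signal of 27.7 (percentile 51.3). Replicate 1 had 1 there, 317 bp upstream, at percentile 79.6 (signal 27.7), and replicate 2 had none within 1000 bp. Replicate 2 had only a weak candidate in the 3′ UTR, at percentile 7.96, so the region upstream of spr-3 rested on replicate 1.

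The gene spr-2 (WBGene00005007, IV, 8891462 to 8892747, plus strand), a suppressor of presenilin not among the 10, encodes a protein of the SET/NAP family and was bound. Its pooled signal was 98.5 and its rank 1123, with the summit 182 bp upstream. It was at percentile 96.3 in replicate 1 and 94.0 in replicate 2, and so was high in both. The sequences at spr-3 (chrX:4513565-4513864) and spr-2 (chrIV:8891130-8891429), both on the plus strand, are given to set an unbound spr gene beside a bound one, with capitals as above.
spr-3: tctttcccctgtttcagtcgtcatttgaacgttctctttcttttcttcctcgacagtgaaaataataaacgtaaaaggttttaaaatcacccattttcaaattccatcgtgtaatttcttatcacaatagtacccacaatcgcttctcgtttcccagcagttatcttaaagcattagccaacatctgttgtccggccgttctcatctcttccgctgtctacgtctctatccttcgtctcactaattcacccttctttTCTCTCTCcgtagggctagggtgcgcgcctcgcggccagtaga
spr-2: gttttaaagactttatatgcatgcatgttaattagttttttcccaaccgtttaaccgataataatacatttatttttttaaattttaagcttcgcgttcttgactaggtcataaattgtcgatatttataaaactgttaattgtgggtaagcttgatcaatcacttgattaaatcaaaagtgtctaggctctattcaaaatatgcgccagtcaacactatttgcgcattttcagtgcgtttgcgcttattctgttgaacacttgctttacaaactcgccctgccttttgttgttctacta

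The spr-3 window held GAGAGA in reverse complement as 2 overlapping matches and was 43.7% G and C. The spr-2 window held none of the 4 words and was 33.0% G and C. The bound spr gene thus had the lower G and C content and no match, and nothing about a factor follows from these letters.

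The gene spr-4 (WBGene00005009, chromosome I, 8103596 to 8109228, plus strand) had 2 overlapping pooled candidates, 378 and 604 bp upstream, in intergenic sequence with signals of 30.3 and 30.1. The stronger was at percentile 59.6. In replicate 1 the strongest start candidate was at percentile 41.3 (signal 17.4) and in replicate 2 at 67.9 (signal 20.3), a mean of 54.6 ± 18.8 (SD, n = 2). Both replicates had a candidate there, in neither above percentile 67.9. The −log10 q value of the stronger pooled candidate was 0.206, far below the lowest thresholded value of 2.80. Within the body, a pooled candidate 4599 bp from the start, in a coding exon, had a signal of 19.7. Other coding-exon candidates were found in 1 replicate each, at percentile 47.4 in replicate 1 and at 58.4 in replicate 2.

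Of 44 related genes in 5 lists, 34 had a pooled candidate at the start, beside 45.8% of all nuclear protein-coding genes. Of the 44, 9 (20.5%) were bound, beside 5.83% of all nuclear protein-coding genes. The lists were drawn up with earlier results of these data known, and the count is given without a test. Replicate 1's own strongest regions bound 8 of the 44 and replicate 2's bound 10. Among the partners of class I deacetylases in other complexes, 2 of 10 were bound. These were lin-53 (signal 355, rank 77, summit 234 bp upstream), the histone-binding RbAp48 protein, and lin-40, the MTA subunit of NuRD. At lin-40 the signal was 102 and the rank 1067, with the summit 880 bp upstream. The strongest unbound partner was mep-1 (72.6), at percentile 91.2 in replicate 1 and 90.8 in replicate 2. The corepressor gene sin-3 (65.9) was not bound and differed between replicates, at percentile 94.6 in replicate 1 and 46.5 in replicate 2. All 10 of these partner genes had a pooled start candidate, beside 45.8% of all nuclear protein-coding genes. That of mbd-2 was weak (percentile 23.0), and mbd-2 had no start candidate in either replicate. For chd-3 there was none in replicate 1.

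Other deacetylase genes had 1 of 9 bound, the class II gene hda-6 (signal 88.3, 56 bp upstream), and the sirtuin gene sir-2.1 was next at 64.05. The gene hda-6 was among the strongest regions of replicate 2 and not of replicate 1. Of the methyltransferase genes that act on histone H3 and their partners, 3 of 12 were bound. These were the MLL-type gene set-16 (signal 444, rank 65) and 2 genes of subunits of the complex that methylates lysine 4, ash-2 (167) and rbbp-5 (81.5). Like hda-6, rbbp-5 was among the strongest regions of replicate 2 and not of replicate 1. The unbound genes with the strongest candidates were set-25 (76.5), which encodes a methyltransferase of lysine 9, wdr-5.1 (68.7) and set-2 (57.3), which encode a subunit and the enzyme of the complex for lysine 4. At met-2, another gene for lysine 9 methylation, the signal was 20.5. Of the JmjC demethylase genes, 2 of 10 were bound, jhdm-1 (178) and jmjd-1.2 (156). Of spr-2 and the amine oxidase genes amx-2 and amx-3, spr-2 was bound, amx-3 had a signal of 45.3 and amx-2 had no pooled candidate.

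**Figure D5:**
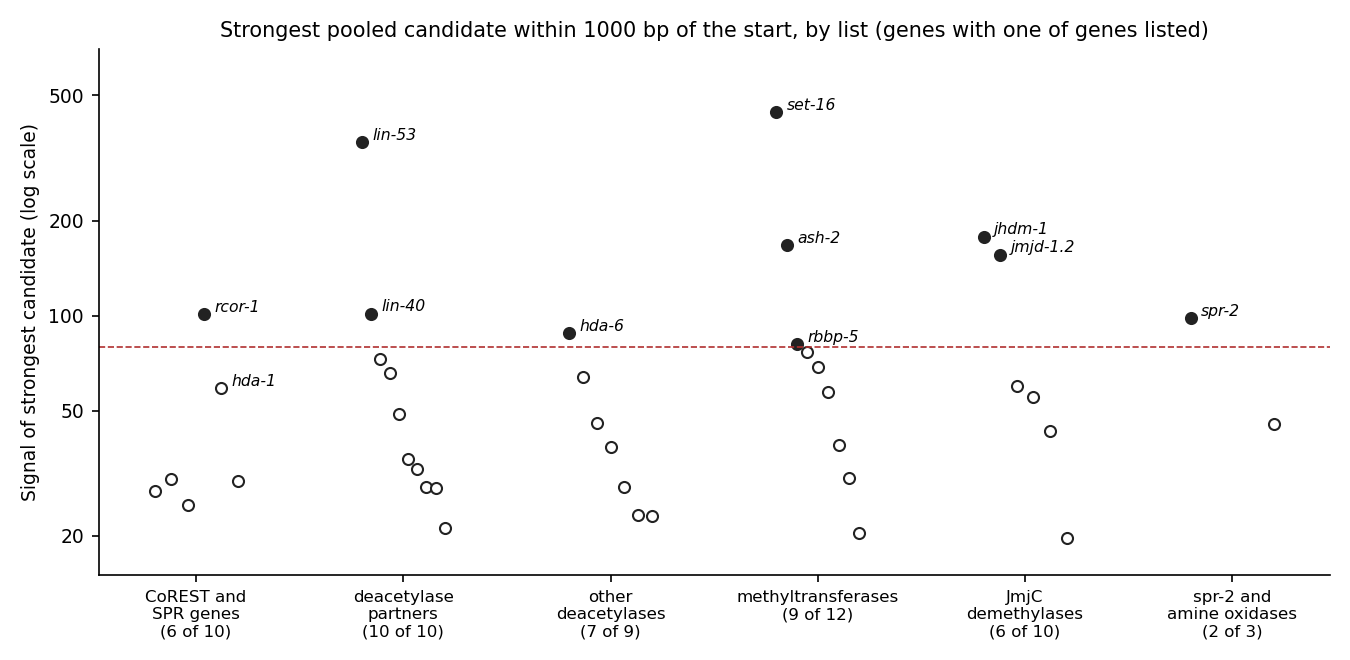
Signal of the strongest pooled candidate within 1000 bp of the start (y axis, log scale), with 1 point per gene, for the 10 genes and 5 lists of related genes (x axis, with the number of genes that had a candidate of those listed). Filled points are thresholded, and the dashed line is the lowest thresholded signal, 79.7. Of the 10 genes only rcor-1, at 101, lies above the line, and 9 related genes do.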

How the data were processed

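The deposited files are region lists in the narrowPeak layout on builds ce10 and ce11, per the labels. Per the deposited text listings, candidates and background of each replicate and of both together fed a comparison by irreproducible discovery rate, made against a control alignment that was not used here. The sources used here do not name the aligner, peak caller or threshold. The signal and the −log10 q value of each region are the authors' own values, as deposited. Signal levels were used within a list only.

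Only ce11 lists were used, with Ensembl annotation release 115. Every region ended within its WBcel235 chromosome. Coordinates are 1-based, ranks include mitochondrial regions (23 in the pooled list), and a candidate counted at a gene by its summit. Replicate regions matched pooled ones by an overlap of at least 1 bp. The strongest 1686 regions of each replicate stood in for a threshold. Sequence came from the RefSeq copy of WBcel235. Computation used Python 3.11.15, pandas 2.3.3, numpy 2.4.6 and Biopython 1.88, and the window search recovered known positions on simulated data. The 10 genes and all lists were chosen with earlier results of these data known. The genes named were the 10 and, in each related list, the bound genes and the 2 strongest. Also named were protein-coding genes with a start within 1000 bp of a candidate at the 10, and the rank neighbours of rcor-1. Of noncoding genes with such a start, not all were named. The neighbours nlp-40, slc-25A46, fdps-1, F55G7.5, snap-1, eif-3.J, swsn-7 and sesn-1, and the further related genes, were named after their values were seen. No group comparison was possible.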

Additional observations from a re-analysis of the deposited data

How the results depend on the processing

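With 843 regions as the threshold, 0 of the 10 genes were bound, and with 3372 there were 2, rcor-1 and hda-1. The share of all genes bound at these thresholds was not counted, so these counts show nothing particular to the 10 genes. The count was 3 with the start of the first gene of a same-strand run, an alternative chosen after seeing the data. It was 1 within 500 bp or 2000 bp, by interval overlap, with any transcript start, with the gene body added, and in either replicate alone (1 to 1). The number with any candidate was 5 to 7 under the window, overlap, transcript and body alternatives, and 4 to 7 with a replicate left out. The median percentile was 71.8 within 2000 bp, 63.4 by interval overlap and 67.2 with the gene body, and 58.6 to 64.5 with a replicate left out. Over all genes, no counts or medians were made under the window, overlap, transcript and body alternatives. The median of 65.7 over all genes is for summits within 1000 bp and cannot be set beside those values. With 843 regions the related lists had 1 deacetylase partner, 0 other deacetylases and 0 of spr-2 and the amine oxidases bound. With 3372 they had 4 partners, 2 other deacetylases and 6 methyltransferase genes. These counts too have no share of all genes beside them. By construction a longer list can only add bound genes. Likewise, a wider window, interval overlap or an added body can only keep or raise the strongest percentile of a gene with a candidate. The cause of the shifts with a replicate left out was not tested. Of 20 distances to a thresholded summit under these 2 alternatives, 7 changed, and the summit nearest to rcor-1 with 843 regions was 9748 bp away, past its 3′ end. No paired analysis was possible because there was 1 group. Read depth is unknown and limits what the absence of a candidate shows.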
